A study of Saccharomyces cerevisiae with 24 samples.

Results

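The genes of chromosome V, one of the 16 nuclear chromosomes of *Saccharomyces cerevisiae*, were described on 24 expression arrays of strains lacking the histone variant H2A.Z or subunits of the SWR1 complex. The members were the probe sets paired with a single gene on chromosome V in the RefSeq gene table. The 15 outermost genes of each chromosome end, genes of the RPL, RPS, RSM and COX families and 19 further named genes were left out. This gave 211 genes, each with 1 probe set, of 5449 genes with 5498 probe sets in all, with 53 members on the left arm and 158 on the right arm. The chromosome was chosen on measured values, because its genes lay high on swc5Δ replicates 2 and 3, so the levels on the swc5Δ arrays and every comparison that holds them are given as a description.

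A haploid yeast cell carries each chromosome in a single copy. In strains that gained a whole chromosome, the RNA of most genes along it is known to rise together, over both arms, whatever the genes do in the cell. SWR1 is the remodelling complex that places H2A.Z, encoded by *HTZ1*, into nucleosomes. Swr1 is its ATPase, Swc2 (encoded by *VPS72*) binds H2A.Z, and Swc5 is needed for the exchange.

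The 8 strains were the single mutants swc5Δ, swc2Δ, swr1Δ and htz1Δ, the double mutants htz1Δ swc5Δ, htz1Δ swc2Δ and htz1Δ swr1Δ, and wild type (BY4741), each grown as 3 independent cultures with 1 array per culture. All 8 strains were MATa cells with *his3Δ1*, *leu2Δ0*, *met15Δ0* and *ura3Δ0*, and the single mutants carried kanMX4 in place of the deleted gene. The htz1Δ strain also lacked *BAR1*, and htz1Δ swc5Δ also lacked *LYS2*. Each mutant was taken as a single strain, so other changes carried by that strain cannot be told apart from its deletion. Whether the 3 cultures of a strain shared all such changes was not tested. The labels give swr1Δ replicates 2 and 3 strain names other than that of replicate 1, and the 3 were treated as cultures of 1 strain.

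RNA from mid-log cultures was hybridised to Affymetrix arrays, and the deposited values were log2 expression levels. The array medians lay at 9.29 to 9.30 for swr1Δ, 10.06 to 10.10 for swc2Δ, 9.97 to 9.99 for swc5Δ, and 9.71 to 9.77 for the other 15 arrays, so each value on the 9 arrays of these 3 strains was replaced by the value of the same rank in the averaged distribution of the remaining 15. Each deleted gene was low where the labels place its deletion. *HTZ1* read 2.61 to 3.27 on the 12 arrays of strains without it, against 10.13 to 11.53 on the other 12, and *SWC5* read 2.26 to 2.99 on 6 arrays, against 7.59 to 8.27 on the other 18. *SWR1* read 2.23 to 3.75 on 6 arrays, against 9.02 to 10.48 on the other 18, and *VPS72* read 3.44 to 4.66 on 6 arrays, against 8.99 to 9.40. *URA3*, a chromosome V gene deleted in all 8 strains, read 2.26 to 3.21 on the 24 arrays.

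The level of the chromosome on an array was taken as follows. Each gene's log2 value was set against its median over the 24 arrays, each array was centred on the median over all 5498 probe sets, and the median over the members was taken. On this scale 0 is the level of a typical gene and 1 is a doubling. The chromosome V level was -0.114 on swc5Δ replicate 1, 0.355 on swc5Δ replicate 2 and 0.389 on swc5Δ replicate 3, against -0.028 to 0.006 on the 21 arrays of the other strains. As a fold, the levels of the 3 swc5Δ arrays were 0.924, 1.279 and 1.309. Replicates 2 and 3 of swc5Δ stood apart from the other 22 arrays on the high side, while replicate 1 was the lowest of all 24. No DNA was measured in this series, so the number of copies of chromosome V in these cultures was not tested. Each array reads RNA pooled over a culture, so a larger rise in some of the cells and a smaller rise in all of them cannot be told apart.

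The other 15 chromosomes, taken with the same genes left out, stayed between -0.036 and 0.066 on the 3 swc5Δ arrays and between -0.044 and 0.071 over all 24. On swc5Δ replicate 1, chromosome VI was at 0.066 and chromosome III at -0.036. On replicate 2 they ran from -0.033 for chromosome VI to 0.013 for chromosome XIII. Chromosome V was thus outside the range of all other chromosomes on each swc5Δ array, above it on replicates 2 and 3 and below it on replicate 1.

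**Figure D1:**
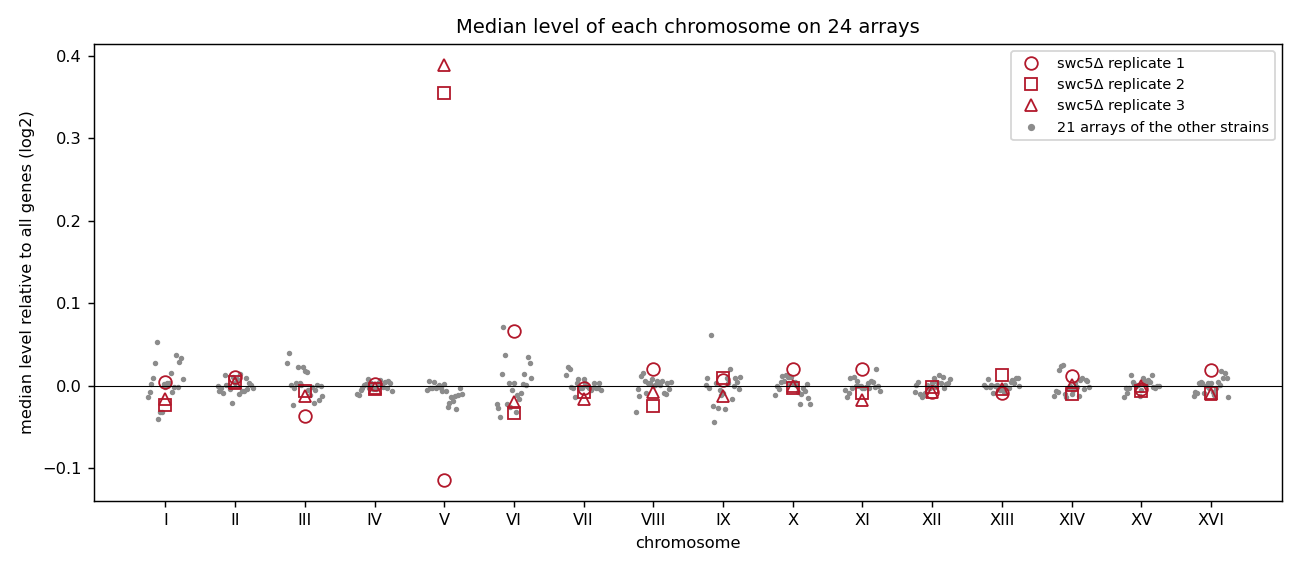
Median level of each of the 16 chromosomes relative to all genes (log2, vertical axis) on the 3 swc5Δ arrays (red symbols) and on the 21 arrays of the other strains (grey points). Chromosome V reads 0.355 and 0.389 on swc5Δ replicates 2 and 3 and -0.114 on replicate 1, and all other values lie between -0.044 and 0.071.

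The shift was spread over most members rather than carried by a few. On swc5Δ replicate 2, 195 of the 211 members were above 0 with quartiles of 0.189 and 0.540. On replicate 3, 190 were above 0, with quartiles of 0.235 and 0.544. On replicate 1 only 50 were above 0, with quartiles of -0.257 and -0.004. Over the 21 arrays of the other strains, 86 to 109 members were above 0, with a median of 102. Members over 2-fold numbered 0, 4 and 5 on swc5Δ replicates 1, 2 and 3, against 0 to 6 on the other 21 arrays, and those over 1.5-fold numbered 4, 38 and 46 on swc5Δ replicates 1, 2 and 3, against 0 to 18 on the other 21 arrays.

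**Figure D2:**
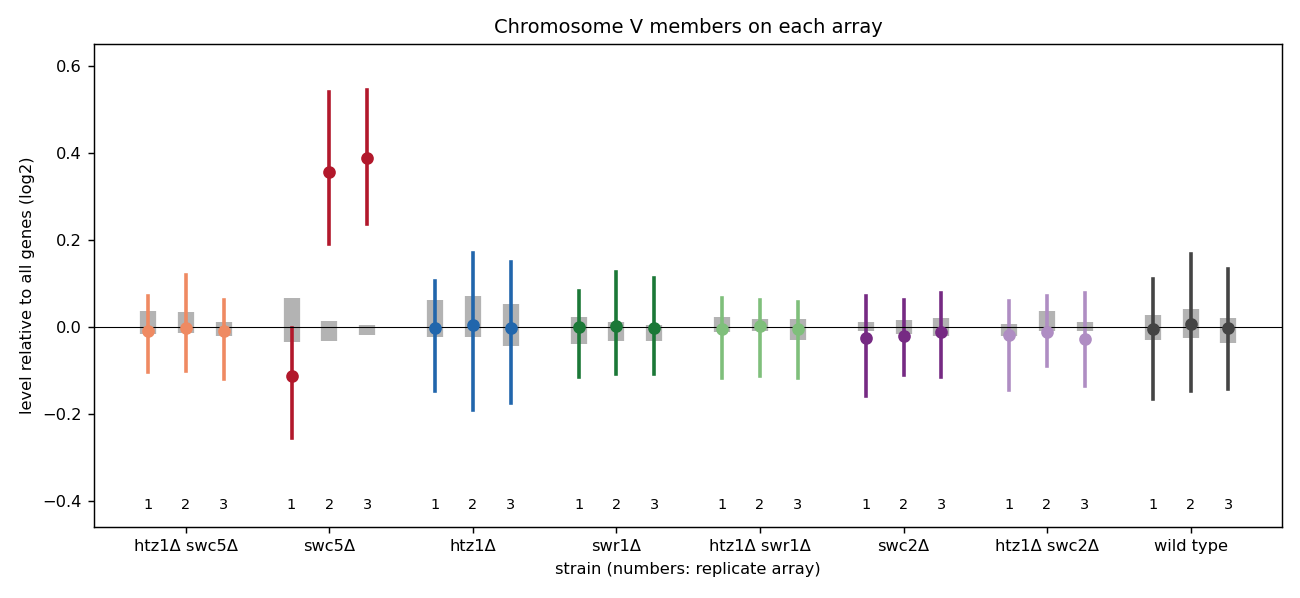
Chromosome V level on each array (log2, vertical axis) by strain and replicate. Points are medians over the 211 members, coloured bars run between their quartiles, and the wide grey bars span the medians of the other 15 chromosomes on the same array. The lower quartiles on swc5Δ replicates 2 and 3 are 0.189 and 0.235, and the bars span 0 on the 21 arrays of the other strains.

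Against each gene's own range, 123 members on swc5Δ replicate 2 and 131 on replicate 3 were above the highest of the 21 arrays of the other strains, and 112 were so on both. Of the genes on other chromosomes, 6.34% on replicate 2 and 4.47% on replicate 3 exceeded that range. On swc5Δ replicate 1, 5 members were above the highest and 34 below the lowest of the 21 arrays, where 8.06% of the genes on other chromosomes were above and 6.87% below.

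Along the chromosome the shift did not break at any point that groups of 20 neighbouring members resolve. The members were cut in gene order into 11 groups, the last of 11 genes, from *NPR2* on the left arm to *PDA1* on the right. Group medians ran from 0.195 to 0.439 on swc5Δ replicate 2 and from 0.311 to 0.461 on replicate 3, so all 11 were above 0 on both. On swc5Δ replicate 1 all 11 were below 0, from -0.211 to -0.027. The 231 group medians of the 21 arrays of other strains lay between -0.194 and 0.173. The lowest value on replicate 2 was that of the last group, from *RPH1* to *PDA1*, which read 0.409 on replicate 3.

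Both arms moved alike. The left arm read -0.082, 0.355 and 0.382 on swc5Δ replicates 1, 2 and 3, and the right arm read -0.115, 0.354 and 0.397. On the other 21 arrays the left arm ran from -0.069 to 0.064 and the right arm from -0.034 to 0.013.

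**Figure D3:**
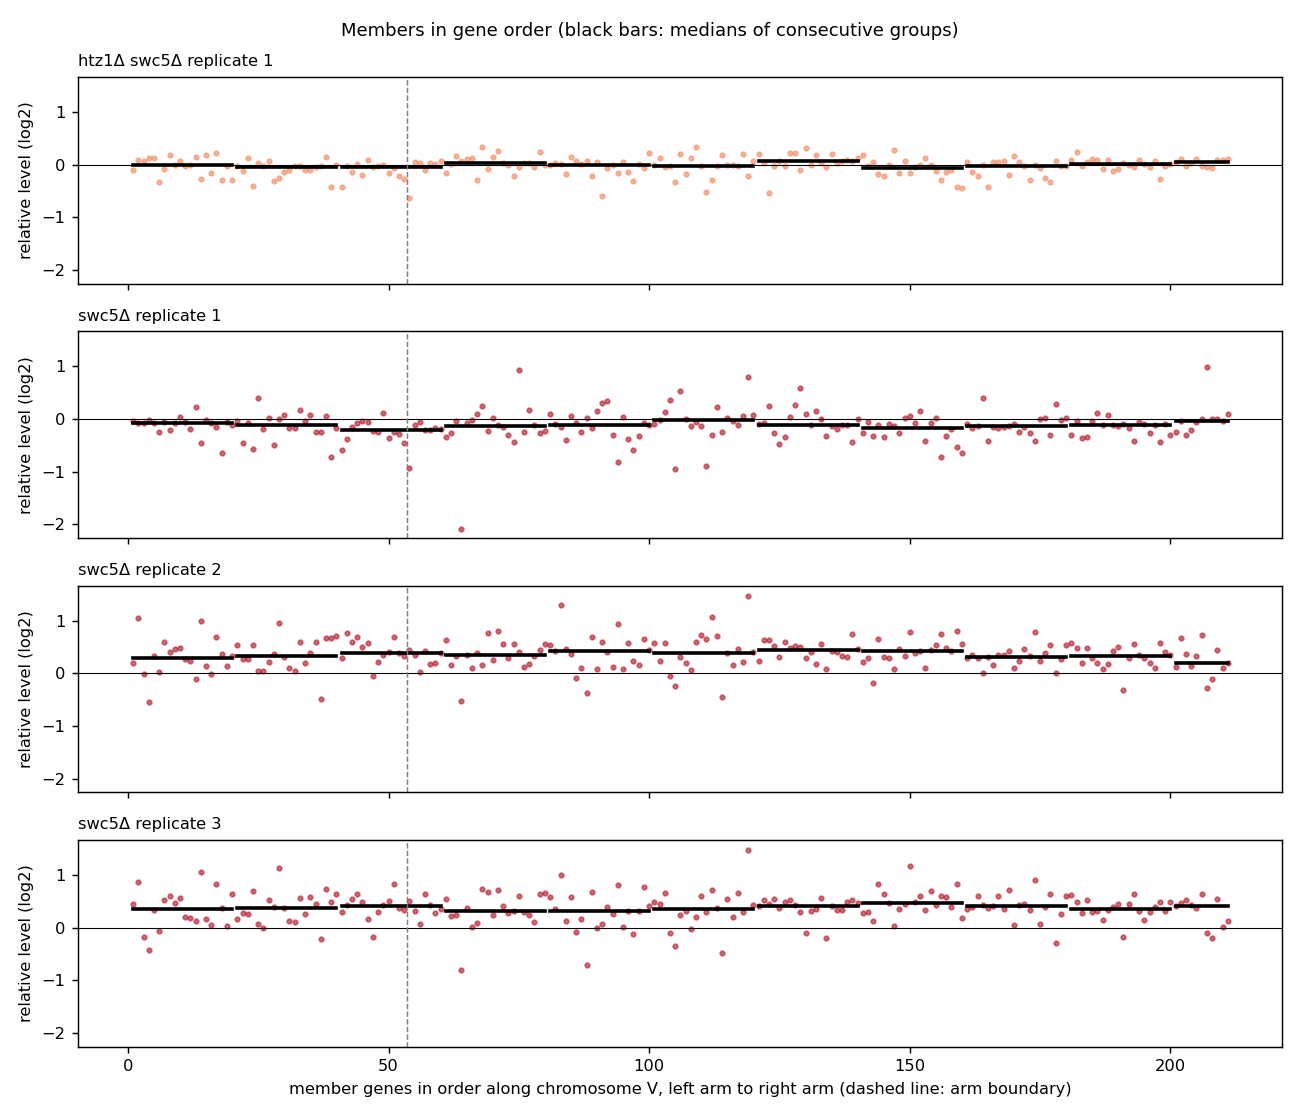
Level of each of the 211 members relative to all genes (log2, vertical axis) in gene order along chromosome V (horizontal axis) on htz1Δ swc5Δ replicate 1 and on the 3 swc5Δ arrays. Black bars are medians of consecutive groups of 20 members (11 in the last) and the dashed line separates the arms. The bars stay between 0.195 and 0.461 on swc5Δ replicates 2 and 3, and none is above 0 on swc5Δ replicate 1.

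The genes of chromosome V that the rule leaves out were also high on the same arrays. The 23 probe sets of the outermost genes had medians of -0.163, 0.410 and 0.369 on swc5Δ replicates 1, 2 and 3, with 20 and 21 of the 23 above 0 on replicates 2 and 3. The 18 further named genes with a probe set of their own outside the ends had medians of -0.017, 0.302 and 0.306, with 16 of 18 above 0 on each of replicates 2 and 3. The 9 probe sets of the RPL, RPS, RSM and COX families were all above 0 on both, at smaller medians of 0.178 and 0.183. At the left end, *CAN1*, the last gene left out, read 0.338 and 0.378 on replicates 2 and 3, and *NPR2*, the first member, read 0.201 and 0.457. At the right end *PDA1*, the last member, read 0.195 and 0.130, and *DMC1*, the next gene with a probe set, read 0.410 and 0.397.

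The size of the shift differed with the brightness of the probe sets. The 79 members with a mean log2 signal of 8 to 10 had medians of 0.372 and 0.426 on swc5Δ replicates 2 and 3, and the 73 members between 10 and 12 had 0.398 and 0.427. The 25 members between 6 and 8 read 0.459 and 0.489. The 24 members above 12 read 0.217 and 0.287, and the 10 members below 6, near the floor of the array, read 0.150 and 0.000. Genes of other chromosomes in the same bands stayed between -0.017 and 0.023 on these 2 arrays.

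Set directly against each other, swc5Δ replicates 2 and 3 were close. The member median of replicate 3 minus replicate 2 was 0.025, with quartiles of -0.078 and 0.125. Replicate 2 minus replicate 1 gave 0.470, with 194 members higher on replicate 2, and replicate 3 minus replicate 1 gave 0.525, with 191 higher on replicate 3. In the other 7 strains the 21 differences between arrays of 1 strain had member medians of -0.024 to 0.036, with 90 to 122 members above 0. Genes of other chromosomes also spread more in the 2 differences from swc5Δ replicate 1, with quartiles of -0.204 and 0.193 for replicate 2 and of -0.227 and 0.195 for replicate 3, against -0.097 and 0.104 between replicates 3 and 2. The median SD of a member over the 3 swc5Δ arrays was 0.301, which was 2.09 times that of genes on other chromosomes (0.144). In the other strains this ratio ran from 0.900 to 1.04.

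The members highest on the 2 arrays are given next, and whether their roles are related was not tested. *RGI1*, a gene named for its rise in respiratory growth, was the highest member on both. It read 9.99, 10.66 and 10.68 on swc5Δ replicates 1, 2 and 3, against 8.13 to 9.97 on the 21 arrays of the other strains, so that all 3 swc5Δ arrays were above that range. *FIR1* read 9.86, 11.31 and 11.01, against 9.73 to 10.54, and *TCA17*, a factor of the vesicle-tethering TRAPP complexes, read 8.24, 9.68 and 9.76, against 8.09 to 9.42. In both, replicate 1 lay within the range of the other strains and replicates 2 and 3 above it.

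*CIN8*, a kinesin motor of the mitotic spindle, read 8.77, 9.90 and 9.71 on the 3 swc5Δ arrays, against 8.11 to 9.20 on the other 21. *FCY22*, a member of the purine and cytosine permease family, read 5.82, 7.20 and 6.85, against 5.61 to 6.56. *ECM10*, a mitochondrial Hsp70, read 6.28, 7.23 and 7.40, against 5.73 to 6.80. *MAM1*, a meiotic monopolin subunit, read 5.06, 5.78 and 6.18, against 4.28 to 5.78, so that only replicate 3 passed the highest of the other arrays. *FCY22* and its relative *FCY21* are similar in sequence, so cross-hybridisation between them was not tested.

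Only 13 members were below 0 on both swc5Δ replicates 2 and 3. The lowest were *SOM1*, a component of the mitochondrial inner membrane peptidase, with -0.543 and -0.426, and *TIR1*, a cell wall mannoprotein, with -0.518 and -0.798. *GPP2*, a glycerol-3-phosphate phosphatase, had -0.458 and -0.482, *PHM8*, a phosphatase gene of the phosphate response, had -0.376 and -0.711, and the deleted *URA3* had -0.484 and -0.218. On swc5Δ replicate 3, *YER053C-A* was also among the lowest 5, at -0.351. *TIR1* was lower still on replicate 1, at -2.082, and ranged from -1.632 to 0.788 on the 21 arrays of other strains. *SOM1* fell in the other mutant strains too, as given below.

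The lists by role were chosen with earlier results of these data known. That of chromatin and transcription genes (13 of 13 measured as members) read -0.148, 0.426 and 0.522 on swc5Δ replicates 1, 2 and 3 as medians. All 13 were above 0 on both replicates 2 and 3, where 92.4% and 90.0% of all members were. *IES6*, a subunit of the INO80 remodeller, was at 0.693 and 0.823, *EAF5*, of the NuA4 acetyltransferase, at 0.699 and 0.636, and *SWI4*, of the transcription factor SBF, at 0.440 and 0.687. *SPT15*, the TATA-binding protein, was at 0.189 and 0.277. The list's medians on the other 21 arrays ran from -0.110 to 0.064.

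Genes of DNA repair, replication and chromosome segregation (14 members) read -0.088, 0.396 and 0.446, with 14 and 13 above 0 on replicates 2 and 3. After *CIN8*, *SPC25* of the kinetochore (0.799 and 0.709) and *BIM1*, which binds microtubule ends (0.767 and 0.680), were highest, while *MAG1*, a DNA glycosylase, was at 0.005 and -0.286. Genes of protein turnover and trafficking (16 of 16) read -0.179, 0.297 and 0.377, with 15 and 14 above 0. *UBP9*, a deubiquitinase, was at 0.644 and 0.827, and *HYP2*, which encodes a translation elongation factor, was at 0.045 and -0.007.

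Mitochondrial genes (10 of 10) read -0.006, 0.369 and 0.225, with 9 above 0 on each of replicates 2 and 3, the exception being *SOM1*. Metabolic genes (15 of 16, all but *ARG5,6*) had the smallest list medians on replicate 2, reading -0.077, 0.195 and 0.307, with 12 and 13 above 0. Within that list *FAA2*, a fatty acyl-CoA synthetase, read 0.151 and 0.732, *ICL1*, isocitrate lyase, read 0.467 and 0.649, and *SAH1*, of the methyl cycle, read 0.087 and 0.020. *HEM14* of heme synthesis (0.093 and 0.005) and *GLY1*, threonine aldolase (-0.020 and 0.054), were also near 0.

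In the comparison of swc5Δ with wild type, fitted with limma across all probe sets, the number of members called moved with the swc5Δ arrays used. A gene was called at an adjusted p under 0.05. Of the 211 members 73 were higher and 15 lower in swc5Δ, where 16.4% of all probe sets were higher and 16.6% lower, and the median member difference was 0.21, against 0.00 over all probe sets. With swc5Δ replicate 1 left out, 140 members were higher and 12 lower, where 17.9% and 17.7% of all probe sets were. With replicate 2 left out the counts were 51 and 14 (14.2% and 15.4% of all), and with replicate 3 left out 47 and 15 (13.8% and 15.5% of all). With replicates 2 and 3 both left out, 20 members were higher and 61 lower (15.8% and 18.9% of all), a comparison in which the lone swc5Δ array is assumed to vary as the other strains do. Of the 904 probe sets called higher, 88 or 9.73% lay on chromosome V, which holds 4.75% of those tested. Of the 29 more than 2-fold higher, 5 lay on chromosome V.

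The comparison of htz1Δ swc5Δ with swc5Δ holds the same arrays on its reference side. Here 2 members were higher and 26 lower in the double mutant, with 3.87% of all probe sets higher and 3.02% lower, and the median member difference was -0.22, against 0.00 over all. Without swc5Δ replicate 1, 4 members were higher and 142 lower, and the shares over all probe sets were also larger, at 12.8% and 14.7%. Without swc5Δ replicate 2, 1 member was higher and 3 lower (1.35% and 0.655% of all), and without replicate 3, 1 was higher and 5 lower (2.09% and 1.07% of all). Without both, 14 members were higher and 1 lower (2.24% and 3% of all). Leaving out htz1Δ swc5Δ replicate 2 left 0 members higher and 11 lower (1.55% and 0.782% of all), and leaving out htz1Δ swc5Δ replicate 1 left 2 and 17 (2.64% and 2.36% of all). Of the 166 probe sets called lower in the double mutant, 35 or 21.1% lay on chromosome V, and of the 8 that were more than 2-fold lower, 3 did, namely *RGI1*, *YEL073C* and *YER187W*. *YEL073C* and *YER187W* are outermost genes and no members. The remaining 5 of the 8 include *HTZ1* and *LYS2*, which the double mutant lacks.

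The htz1Δ swc5Δ arrays, which carry the same *SWC5* deletion, had chromosome V levels of -0.011, -0.002 and -0.010, with 95, 105 and 96 members above 0. All 3 thus lay within the range of the other strains. As an example, *VAC8*, which encodes a vacuolar membrane protein, read 10.39, 10.53 and 10.37 in htz1Δ swc5Δ, against 10.53, 11.06 and 11.05 in swc5Δ. *ALD5*, a mitochondrial aldehyde dehydrogenase, read 11.35, 11.67 and 11.90 in htz1Δ swc5Δ, against 12.11, 12.49 and 12.32 in swc5Δ, where replicate 1 was above all 3 double mutant arrays as well.

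The arrays of swc5Δ also bear on the other 6 comparisons with wild type, because the fit shares 1 estimate of the spread over all 24 arrays. The median standard error of a member was 0.13 with the swc5Δ arrays in the fit and 0.083 without them, against 0.10 and 0.084 over all probe sets, while the fold changes were the same. In htz1Δ, 45 members rose and 39 fell, where 24.2% and 26.9% of all probe sets did, and without the swc5Δ arrays 52 rose and 65 fell, where 26.4% and 29.6% did. In swr1Δ, 29 rose and 25 fell (14.7% and 17.6% of all), and without them 45 and 42 did (16.8% and 20.6%).

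In swc2Δ, 18 rose and 25 fell (16% and 17.3% of all), and 33 and 44 did without the swc5Δ arrays (18.3% and 20.6%). In htz1Δ swr1Δ, the counts were 22 and 28 (10.9% and 18.0%), and 37 and 52 without them (12.9% and 21.2%). In htz1Δ swc2Δ they were 20 and 22 (15% and 16.3%), and 38 and 41 (17.7% and 19.3%). In htz1Δ swc5Δ they were 30 and 25 (17.9% and 18.7%), and 42 and 48 (20.2% and 21.3%). With all 24 arrays the share of members called was below that of all probe sets in 12 of these 12 counts. With the swc5Δ arrays left out it was below in 4 and above in 8.

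**Figure D4:**
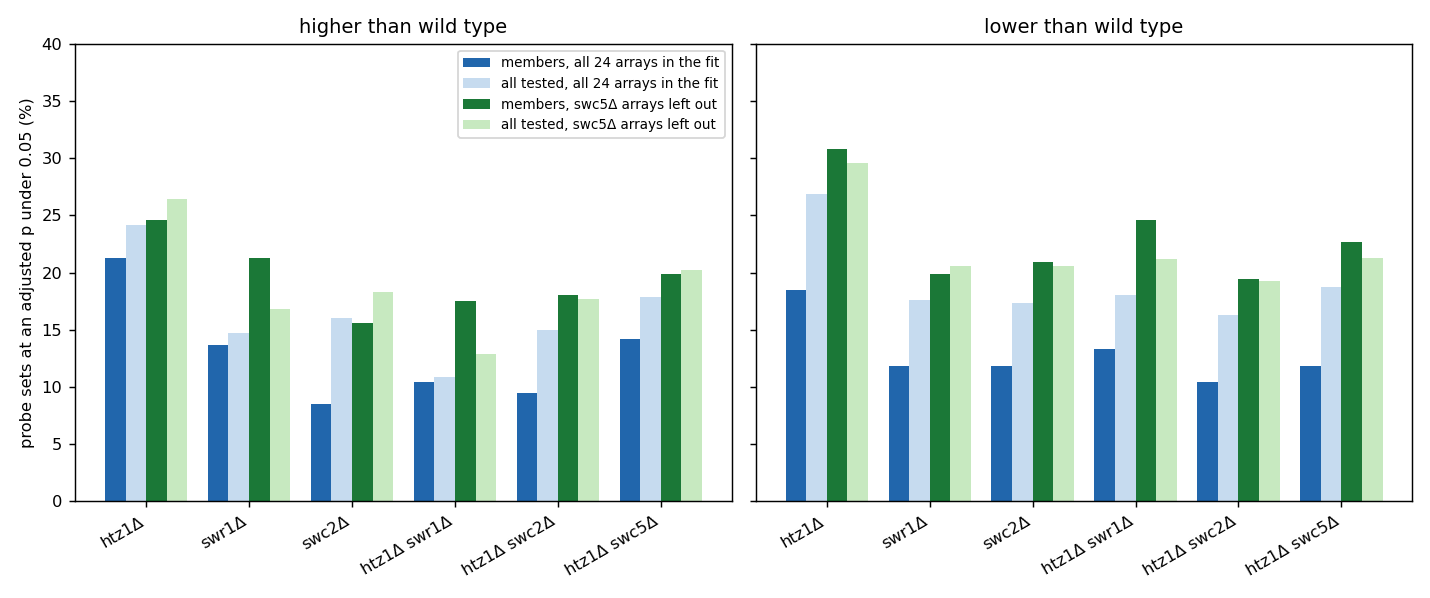
Percent of probe sets higher (left) or lower (right) than wild type at an adjusted p under 0.05 (limma, vertical axis) in 6 mutant strains. Dark bars are the 211 members and light bars all 5498 probe sets, in blue with all 24 arrays in the fit and in green with the swc5Δ arrays left out. Dark blue bars are below their light partners in all 12 pairs, and dark green bars in 4 of 12.

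Few members passed 2-fold at an adjusted p under 0.05. They came to 12 in htz1Δ, 7 in swr1Δ, 2 in swc2Δ and 8 in swc5Δ, which is 5.69%, 3.32%, 0.948% and 3.79% of the members, where 5.66%, 2.62%, 2.35% and 2.8% of all probe sets passed. Of the 8 in swc5Δ, 4 were higher and 4 lower, among 29 higher and 125 lower probe sets in all. They came to 6 in htz1Δ swr1Δ, 4 in htz1Δ swc2Δ and 4 in htz1Δ swc5Δ (2.82%, 2.18% and 2.16% of all), and to 2 between htz1Δ swc5Δ and swc5Δ (0.982%). The median member difference from wild type lay between -0.07 and 0.00 in the 6 mutants other than swc5Δ, against -0.04 to 0.01 over all probe sets. These 6 comparisons and that of swc5Δ share the 3 wild type arrays.

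The largest difference of any member was the fall of *SOM1*. It read 7.39, 7.60 and 7.34 in htz1Δ, 6.21, 6.08 and 6.32 in swr1Δ and 7.09, 6.77 and 6.87 in swc2Δ, against 9.46, 9.38 and 9.58 in wild type. It read 6.63, 6.30 and 6.34 in htz1Δ swr1Δ, 7.53, 6.88 and 7.18 in htz1Δ swc2Δ and 7.02, 7.03 and 6.72 in htz1Δ swc5Δ. No mutant array reached the lowest wild type array. The log2 change was -2.03 in htz1Δ, -3.27 in swr1Δ, -2.57 in swc2Δ, -3.05 in htz1Δ swr1Δ, -2.28 in htz1Δ swc2Δ and -2.55 in htz1Δ swc5Δ, with a standard error of 0.15 in each and limma adjusted p from 1.58e-11 to 9.18e-09. On the 3 swc5Δ arrays it read 6.85, 6.33 and 6.45, with the higher value on replicate 1.

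*SWI4*, the DNA-binding subunit of the G1/S transcription factor SBF, rose in all 6. It read 7.23, 7.22 and 7.08 in htz1Δ, 7.51, 7.49 and 7.33 in swr1Δ and 6.94, 7.10 and 7.10 in swc2Δ, against 6.14, 6.21 and 6.55 in wild type. The double mutants htz1Δ swr1Δ, htz1Δ swc2Δ and htz1Δ swc5Δ lay between 6.83 and 7.69. The groups did not overlap with wild type, and the log2 change ran from 0.72 ± 0.18 in htz1Δ swc2Δ (adjusted p = 0.00497) to 1.15 ± 0.18 in swr1Δ (adjusted p = 8.27e-05, limma, standard errors). On the swc5Δ arrays it read 7.11, 7.62 and 7.87, so replicate 1 was above wild type as well.

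*CIN8* rose by 0.90 ± 0.18 in swc2Δ (9.17, 9.17 and 9.14, against 8.26, 8.11 and 8.41 in wild type, limma adjusted p = 0.000949). It also rose in htz1Δ (0.56, adjusted p = 0.0155), htz1Δ swc2Δ (0.77, adjusted p = 0.00325) and htz1Δ swc5Δ (0.74, adjusted p = 0.00374). In swr1Δ and htz1Δ swr1Δ the changes were 0.42 and 0.41 (adjusted p = 0.0824 and 0.1). Every array of both strains was nevertheless above the highest wild type array, with means of 8.69 and 8.67 against 8.26. The shared spread of the fit includes the swc5Δ arrays, where the SD of *CIN8* was 0.6, against 0.02 to 0.19 in the other strains. Whether the change in swr1Δ differed from that in swc2Δ was not tested. *RNR1*, the large subunit of ribonucleotide reductase, read 12.13, 12.29 and 12.03 in htz1Δ swc5Δ, against 11.41, 11.20 and 11.57 in wild type, a rise of 0.76 ± 0.15 (adjusted p = 0.000781). It rose by 0.48 to 0.64 in swr1Δ, swc2Δ, htz1Δ swr1Δ and htz1Δ swc2Δ, while in htz1Δ it differed by 0.24 (adjusted p = 0.182).

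**Figure D5:**
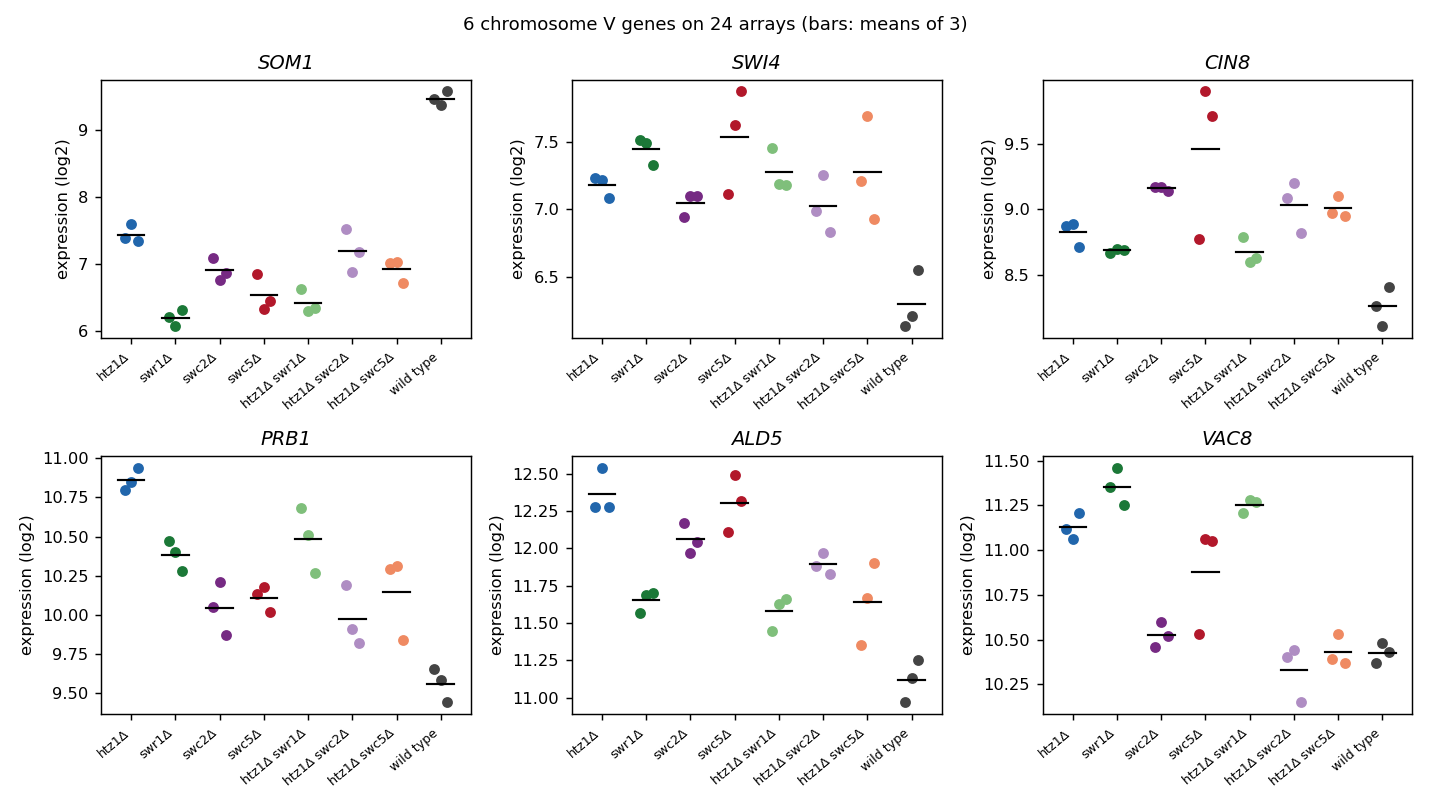
Expression (log2, vertical axis) of 6 chromosome V genes in 8 strains, with a point per array (replicates 1, 2 and 3 from left to right) and a bar at the mean of 3. *SOM1* lies between 6.08 and 7.60 in the mutants against 9.38 to 9.58 in wild type, and in *CIN8* and *VAC8* swc5Δ replicate 1 lies apart from replicates 2 and 3.

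*PRB1*, the vacuolar proteinase B, rose in all 6 mutants. It read 10.80, 10.85 and 10.94 in htz1Δ, against 9.65, 9.58 and 9.44 in wild type, a change of 1.31 ± 0.13 (adjusted p = 2.04e-07). The changes were 0.82 in swr1Δ, 0.49 in swc2Δ, 0.93 in htz1Δ swr1Δ, 0.41 in htz1Δ swc2Δ and 0.59 in htz1Δ swc5Δ, with limma adjusted p from 1.69e-05 to 0.0172. *ALD5* read 12.28, 12.54 and 12.28 in htz1Δ, against 10.97, 11.13 and 11.25 in wild type, a rise of 1.25 ± 0.12 (adjusted p = 2e-07), and rose by 0.46 to 0.94 in the other 5.

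*VAC8* rose only where *SWR1* was deleted or *HTZ1* alone was, among the 6 comparisons. It read 11.35, 11.46 and 11.25 in swr1Δ and 11.21, 11.28 and 11.27 in htz1Δ swr1Δ, against 10.37, 10.48 and 10.43 in wild type (changes of 0.92 and 0.83, standard error 0.11 in both). In htz1Δ the change was 0.70, and in swc2Δ, htz1Δ swc2Δ and htz1Δ swc5Δ it was 0.10, -0.10 and 0.00 (adjusted p = 0.501, 0.509 and 0.992). *RIP1*, the Rieske iron-sulphur protein of the respiratory chain, read 11.07, 11.13 and 11.02 in htz1Δ, against 10.08, 10.12 and 9.87 in wild type, a rise of 1.05 ± 0.13 (limma adjusted p = 2.24e-06). It also rose by 0.57 in each of swr1Δ and htz1Δ swr1Δ. In swc2Δ, htz1Δ swc2Δ and htz1Δ swc5Δ its changes were 0.01, 0.24 and 0.19 and were not called.

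*MEI4* and *YER039C-A*, both of low signal, also fell. *MEI4*, needed for meiotic double-strand breaks, read 4.35, 4.55 and 4.77 in htz1Δ, against 6.01, 6.22 and 6.47 in wild type (-1.68 ± 0.17, limma adjusted p = 3.23e-07). It also fell by 0.72 in swr1Δ, 0.45 in swc2Δ and 0.81 to 0.92 in the 3 double mutants. *YER039C-A* read 4.48, 4.71 and 4.38 in swc2Δ, against 6.07, 6.09 and 5.97 in wild type (-1.51 ± 0.21, limma adjusted p = 2.08e-05). Its changes in the 3 double mutants ran from -1.51 to -1.42, and it fell by 1.12 in htz1Δ and 1.1 in swr1Δ. *HVG1*, its neighbour and a relative of the Golgi GDP-mannose transporter gene, fell by 1.11 ± 0.14 in swr1Δ, where it read 6.18, 6.09 and 5.91, against 7.36, 7.04 and 7.08 in wild type. *HVG1* also fell by 0.51 in htz1Δ, 0.96 in swc2Δ and 0.76 to 0.96 in the 3 double mutants.

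*YEL023C*, which has only a systematic name, fell by 1.22 ± 0.11 in swr1Δ and by 1.24 ± 0.11 in htz1Δ swr1Δ. It also fell by 0.72 in htz1Δ, 0.64 in swc2Δ, 0.70 in htz1Δ swc2Δ and 0.57 in htz1Δ swc5Δ. It read 7.27, 7.11 and 7.24 in swr1Δ, against 8.39, 8.41 and 8.50 in wild type. *FCY21*, of the same permease family as *FCY22*, read 7.12, 6.61 and 7.16 in htz1Δ swc5Δ, against 8.56, 8.78 and 8.63 in wild type (-1.69 ± 0.26, limma adjusted p = 7.9e-05), and fell by 0.96 to 1.31 in htz1Δ, swr1Δ, swc2Δ, htz1Δ swr1Δ and htz1Δ swc2Δ. *TIR1* read 7.91, 7.98 and 7.81 in htz1Δ, against 10.23, 9.40 and 8.82 in wild type (-1.58 ± 0.36, adjusted p = 0.00125), where the wild type arrays differed among themselves by more than 1.

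The role lists were counted in the same 6 comparisons with wild type, at an adjusted p under 0.05, with all 24 arrays in the fit. The shares over all probe sets were 24.2% higher and 26.9% lower in htz1Δ, and 10.9% to 17.9% higher and 16.3% to 18.7% lower in the other 5. Of 13 chromatin and transcription genes, 5 rose in each of htz1Δ and htz1Δ swc5Δ, 3 in swr1Δ and 2 in each of the other 3 mutants, and 1 fell in each of htz1Δ, swc2Δ, htz1Δ swc2Δ and htz1Δ swc5Δ. *SWI4* was in every count of rises, and *JHD1*, a histone demethylase, accounted for each fall. *DOT6*, a repressor of ribosome biogenesis genes, rose by 0.61 in htz1Δ, 0.41 in swc2Δ, 0.37 in htz1Δ swc2Δ and 0.31 in htz1Δ swc5Δ. The list medians ran from 0.01 in htz1Δ swr1Δ to 0.19 in htz1Δ swc5Δ. Without the swc5Δ arrays in the fit, 3 to 7 of the 13 rose and 2 to 4 fell. In that fit, which also gives the second counts of the lists below, 12.9% to 26.4% of all probe sets were higher and 19.3% to 29.6% lower.

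Of 14 repair, replication and segregation genes, 4 rose and 2 fell in each of swc2Δ, htz1Δ swc2Δ and htz1Δ swc5Δ, 3 rose and 3 fell in htz1Δ, 2 rose and 1 fell in swr1Δ, and 1 rose and 1 fell in htz1Δ swr1Δ, with medians from -0.05 to 0.08. Without the swc5Δ arrays 2 to 5 rose and 2 to 5 fell. *RAD4*, of nucleotide excision repair, fell in each of the 6, by 0.26 to 0.43, and *SCC4*, of the cohesin loader, rose by 0.43 in swc2Δ, 0.46 in htz1Δ swc2Δ and 0.42 in htz1Δ swc5Δ. Of 16 turnover and trafficking genes, 5 rose in each of htz1Δ, swr1Δ and htz1Δ swr1Δ and 2 in each of the other 3 mutants, while 3 fell in htz1Δ, 2 in htz1Δ swc5Δ and 1 in htz1Δ swr1Δ, with medians from -0.06 to 0.09. Without the swc5Δ arrays 3 to 7 rose and 1 to 5 fell. *RSP5*, a ubiquitin ligase, rose by 0.45 in htz1Δ, 0.70 in swr1Δ and 0.80 in htz1Δ swr1Δ. *MNN1*, a Golgi mannosyltransferase, fell by 1.2 in htz1Δ and 0.93 in htz1Δ swc5Δ.

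Of 10 mitochondrial genes, 4 rose and 2 fell in htz1Δ, 3 rose and 1 fell in each of swr1Δ and htz1Δ swr1Δ, and 1 rose and 1, *SOM1*, fell in each of the other 3 mutants, with medians from -0.09 to 0.12. Without the swc5Δ arrays 1 to 4 rose and 1 to 4 fell. *AFG3*, of the inner membrane m-AAA protease, rose in all 6, by 0.41 to 0.92, and *CEM1*, of mitochondrial fatty acid synthesis, fell by 0.65 in htz1Δ. Of 15 metabolic genes, 4 rose and 1 fell in htz1Δ, 1 rose and 2 fell in swc2Δ, 2 rose and 3 fell in each of htz1Δ swc2Δ and htz1Δ swc5Δ, and 2 rose and 0 fell in each of swr1Δ and htz1Δ swr1Δ, with medians from -0.10 to 0.02. Without the swc5Δ arrays 1 to 4 rose and 0 to 4 fell. *GLY1* rose by 0.39 in htz1Δ and swr1Δ and by 0.38 in htz1Δ swr1Δ. *CHO1*, phosphatidylserine synthase, fell by 0.45 in swc2Δ, 0.50 in htz1Δ swc2Δ and 0.47 in htz1Δ swc5Δ. *PRS2*, of phosphoribosyl pyrophosphate synthesis, fell by 0.68 in htz1Δ, 0.53 in swc2Δ, 0.54 in htz1Δ swc2Δ and 0.65 in htz1Δ swc5Δ.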

How the data were processed

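Total RNA of 3 independent cultures of each of 8 strains was hybridised to Affymetrix Yeast Genome 2.0 arrays. The authors took the signals with GCOS and summarised them with RMA, and the deposited values are log2 expression levels per probe set, from 1.63 to 14.72. The arrays of swr1Δ, swc2Δ and swc5Δ had other medians than the rest, and the grouping of arrays during normalization is not given in the sources used here, so each value on these 9 arrays was replaced by the value of equal rank in the averaged distribution of the remaining 15, which removes any change shared by all genes of a strain.

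Of 10928 probe sets, 5498 were paired with a single *S. cerevisiae* gene and tested, while 1746 had a gene that the *S. cerevisiae* gene table does not hold, 3683 had no gene and 1 had several. The RefSeq gene table gave names and gene order only. Strains were compared with limma 3.58.1 in R 4.3.3, with a mean per strain over all 24 arrays and Benjamini-Hochberg adjustment over 5498 probe sets. The fit was tested on simulated data. The number of arrays limits the precision. The members and gene lists were chosen with earlier results of these data known. Genes were named as the deleted genes, the 5 highest and lowest members on swc5Δ replicates 2 and 3, the 3 largest rises and falls in each mutant other than swc5Δ, and members of the role lists. The examples *VAC8* and *ALD5* for htz1Δ swc5Δ against swc5Δ were picked after their values were seen. Alternatives changed the scaling, the reference of each gene, the filter on dim probe sets, the members, the summary, a replicate block and the arrays in the fit.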

Additional observations from a re-analysis of the deposited data

Results flagged for a closer look

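For 9 named genes the change that went with loss of *SWR1* or *SWC2* differed between cells without *HTZ1* and cells with it. The difference itself was tested with limma (an interaction term) over all 5498 probe sets. Over all members this test called 15 differences upward and 28 downward for swr1Δ (7.11% and 13.3% of members, against 15.8% and 16.9% of all probe sets), and 21 and 30 for swc2Δ (9.95% and 14.2%, against 17.7% and 14.3%). The 9 genes had been named for large changes from wild type on the same arrays. Those changes enter the tested difference, so the choice of genes can enlarge it. Their differences and adjusted p are therefore given as a description, and only called differences are listed. The htz1Δ strain also lacked *BAR1*, while the double mutants did not. A change between htz1Δ and a double mutant therefore cannot be told apart from a difference in *BAR1*. The cause was not tested for any of them.

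*SOM1* fell by 1.02 in htz1Δ cells and by 3.27 in *HTZ1* cells on deletion of *SWR1*, a difference of 2.25 ± 0.22 (standard error, limma adjusted p = 6.9e-07). On deletion of *SWC2* the changes were -0.25 in htz1Δ cells and -2.57 in *HTZ1* cells, a difference of 2.32 ± 0.22 (adjusted p = 5.06e-07). *SOM1* was already low in htz1Δ.

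The changes of *PRB1*, *SWI4* and *VAC8* on deletion of *SWR1* were smaller or opposite in htz1Δ cells. *PRB1* changed by -0.38 in htz1Δ cells and by 0.82 in *HTZ1* cells (difference -1.20, limma adjusted p = 7.16e-05). *SWI4* changed by 0.10 in htz1Δ cells and 1.15 in *HTZ1* cells (difference -1.05, adjusted p = 0.00442), and *VAC8* by 0.12 in htz1Δ cells and 0.92 in *HTZ1* cells (difference -0.80, adjusted p = 0.000694). *YEL023C* changed by -0.52 in htz1Δ cells and -1.22 in *HTZ1* cells (difference 0.71, adjusted p = 0.00218) and *HVG1* by -0.38 in htz1Δ cells and -1.11 in *HTZ1* cells (difference 0.72, adjusted p = 0.0115).

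On deletion of *SWC2*, *ALD5* changed by -0.47 in htz1Δ cells and by 0.94 in *HTZ1* cells (difference -1.42, limma adjusted p = 9.84e-06), and *SWI4* by -0.15 in htz1Δ cells and 0.75 in *HTZ1* cells (difference -0.90, adjusted p = 0.0119). *YER039C-A* changed by -0.30 in htz1Δ cells and -1.51 in *HTZ1* cells (difference 1.22, adjusted p = 0.00391) and *CIN8* by 0.21 in htz1Δ cells and 0.90 in *HTZ1* cells (difference -0.68, adjusted p = 0.0489).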

How the results depend on the processing

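The chromosome V level moved by more than 0.010, the SD over the 21 arrays of the other strains, under some settings, and kept its sign on the 3 swc5Δ arrays in each. With each array's median subtracted from the deposited values, swc5Δ replicate 2 read 0.345. With the wild type mean as each gene's reference, swc5Δ replicate 1 read -0.130 and the highest of the 21 arrays 0.020. Replicate 3 read 0.405 without the dimmest 25% of probe sets and 0.369 with all chromosome V genes. As means over the members, replicates 1 and 3 read -0.133 and 0.367 and the 21 arrays ran from -0.045 to 0.050.

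Without the dimmest 25%, which leaves 158 members of 4123 probe sets, those lower than wild type numbered 22 in htz1Δ, 9 in each of swr1Δ, swc2Δ, htz1Δ swr1Δ and htz1Δ swc2Δ, 5 in swc5Δ and 12 in htz1Δ swc5Δ. The share of all probe sets lower was then 24.5% in htz1Δ and 12.8% to 16.5% in the others. On the values as deposited, where the array medians differ by strain, 4 were higher and 144 lower in swr1Δ (2.09% and 78.6% of all probe sets), 110 and 8 in swc2Δ (63.3% and 4.02%), 142 and 9 in swc5Δ (48.9% and 7.62%), and 157 were lower in htz1Δ swc5Δ than in swc5Δ (47.5%). Leaving swc5Δ arrays out was chosen after seeing the data. It gave 65 lower in htz1Δ (29.6% of all probe sets), and 45 higher and 42 lower in swr1Δ (16.8% and 20.6%). The counts were 33 and 44 in swc2Δ (18.3% and 20.6%) and 37 and 52 in htz1Δ swr1Δ (12.9% and 21.2%). They were 38 and 41 in htz1Δ swc2Δ (17.7% and 19.3%), with 48 lower in htz1Δ swc5Δ (21.3%). Without swc5Δ replicates 2 and 3 alone, also chosen then, 20 were higher and 61 lower in swc5Δ, and 14 and 1 in htz1Δ swc5Δ than in swc5Δ, where the difference of *FCY22* was 0.01 in place of -0.79.

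Leaving out 1 array at a time, members higher than wild type ranged from 47 to 140 in swc5Δ, where 12.1% to 17.9% of all probe sets were higher. They ranged from 14 to 19 in htz1Δ swr1Δ (8.42% to 9.29% of all) and from 17 to 27 in htz1Δ swc5Δ (13.1% to 18.2% of all). In htz1Δ swc5Δ against swc5Δ, 0 to 4 were higher (1.35% to 12.8% of all) and 3 to 142 lower (0.655% to 14.7% of all). Against wild type, counts moved by over 1.5 times without swc5Δ replicate 1 (140 higher in swc5Δ) or 3 (47), without htz1Δ swr1Δ replicate 2 (14 higher in htz1Δ swr1Δ), and, for htz1Δ swc5Δ, without its own replicate 1 or 2 (18 higher each) or wild type replicate 1 or 2 (19 and 17). Between htz1Δ swc5Δ and swc5Δ the lower calls were 142, 3 and 5 without swc5Δ replicates 1, 2 and 3, and 17 and 11 without htz1Δ swc5Δ replicates 1 and 2, and the higher calls were 4, 1 and 1 without the swc5Δ replicates and 0 without htz1Δ swc5Δ replicate 2. Over 537 alternatives for 47 named gene results, 515 kept the call, 21 lost it and 1 reversed. The 47 include results of swc5Δ against wild type and of htz1Δ swc5Δ against swc5Δ. These hold the arrays on which the chromosome was chosen, so the tally is a description. Nothing in the labels ties same-numbered cultures together. The deviations of same-numbered arrays correlated over 0.1 in 42 of 84 pairs (median 0.09) and those of differently numbered arrays in 34 of 168 (median -0.04). Same-numbered arrays thus deviated together more often. The main fit did not take the numbers as pairs, so its standard errors and adjusted p do not allow for this. A fit with the number as a block was run as an alternative. With the replicate block, 46 members were higher and 43 lower in htz1Δ (25.7% and 28.0% of all probe sets), and 78 and 17 in swc5Δ (17.9% and 18.6% of all). Between htz1Δ swc5Δ and swc5Δ, 2 were higher and 36 lower in the double mutant (5.11% and 4.26% of all). All counts of members were within 1.5 times those without the block. Small changes of single genes are not resolved with 3 arrays a strain, and members of the dimmest and brightest bands showed the smallest shifts.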
